A study of Saccharomyces cerevisiae with 26 samples.

Results

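The 10 genes described here carry sulfate into the yeast cell and turn it into cysteine and methionine: SUL1 (YBR294W), SUL2 (YLR092W), MET3 (YJR010W), MET14 (YKL001C), MET16 (YPR167C), MET2 (YNL277W), MET17 (YLR303W), CYS3 (YAL012W), CYS4 (YGR155W) and STR3 (YGL184C). They were taken by symbol out of the 5445 genes of Saccharomyces cerevisiae that could be tested, and all 10 were measured, each by 1 probe set whose identifier carries no mark for probes shared between transcripts. They were chosen with their values on these arrays in view, so their levels and differences are given as a description, with no test.

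Sulfate enters yeast through high-affinity permeases, is activated in the cytosol to adenylyl sulfate and then phosphoadenylyl sulfate, and is reduced to sulfite and sulfide. Sulfide is joined to O-acetylhomoserine to make homocysteine, from which methionine and S-adenosylmethionine are formed, and the transsulfuration enzymes move sulfur between homocysteine and cysteine in both directions. Many of these genes are switched on when sulfur amino acids run short, through the activator Met4 and its DNA-binding partners, and Met4 is held in check by the ubiquitin ligase subunit Met30.

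Cells were of a haploid S288C strain labelled mating type alpha, grown at 32.5 °C in synthetic medium. Immobilized cells, enclosed in 3 mm beads of calcium alginate in a reactor fed with 100 g/L glucose, were sampled at days 1, 3 and 5 (4 arrays each) and at days 10 and 17 (3 arrays each), and day 0 (2 arrays) is called preimmobilized in the titles but harvested right after immobilization in the source label. Free cells came from anaerobic batch culture begun with 10 g/L glucose, at 72 h in stationary phase (2 arrays). Others came from a chemostat kept anaerobic with a feed of 1 g/L glucose and diluted at 0.15 per h, at 72 h (2 arrays). The log-phase cells came from batch culture with 10 g/L glucose at 12 h (2 arrays). Whether arrays of a group are separate cultures is not labelled, so the spread between them may be technical, nor is it labelled whether the beads were kept anaerobic. RNA was extracted by one published method from beads, day 0 included, and by another from free cells, so that extraction and culture cannot be told apart between beads and free cells.

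The deposited value is a ratio of a probe set's signal to its own median over the 26 arrays, and every value below is the log2 of that ratio, so 0 is the median array of that gene. Absolute level is lost, so levels of different genes cannot be compared, the mating type could not be checked against its marker genes, and a change in the RNA of all genes at once would not show. Differences are given ± SE from limma over all 9 groups, and the immobilized mean weights days 1, 3, 5, 10 and 17 equally (18 arrays). Each SE rests on 1 spread per gene shared by all 9 groups, so it is not the scatter of the groups named. That scatter was unequal: the median SD over all genes was 0.093 in the chemostat, 0.150 in log phase and 0.482 at day 1. Some bead arrays stood apart from their labels. Over all genes the array labelled day 1 replicate 4 correlated at -0.491 to -0.321 with the other day 1 arrays and best (0.715) with day 10 replicate 1, and the one labelled day 17 replicate 1 at 0.0653 and 0.148 with the other day 17 arrays and best (0.849) with day 3 replicate 3. Day 1 replicate 3 correlated best with log phase replicate 1 (0.715), and each array of days 3 and 5 best with one of another day, at -0.372 to 0.455 with those of its own day. As a sign of RNA quality, 3' probe sets of 8 control genes exceeded their 5' ones by a mean log2 value of -0.163, 0.0199, 0.0875, 0.150, 0.103 and 0.244 at days 0, 1, 3, 5, 10 and 17, with -0.257 to 0.487 on the day 1 arrays, against -0.000278 in stationary phase, -0.331 in the chemostat and -0.357 in log phase; its part in the results was not tested.

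SUL1 encodes one of the high-affinity sulfate permeases, and its level varied more than that of any other of the 10 genes. It stood at -1.61 and -2.02 on the day 0 arrays, -2.60, -2.70, -3.57 and 0.47 at day 1, -0.52, -2.12, 1.20 and -2.29 at day 3 and 1.11, 0.07, 0.69 and -1.28 at day 5, then at 0.82, 0.43 and 0.89 at day 10 and -0.65, -1.24 and -0.20 at day 17. Free cells gave -0.08 and 0.61 in stationary phase, 3.34 and 2.79 in the chemostat and 1.65 and 1.02 in log phase. The chemostat was the highest group and clear of all others, and 3 of the 4 day 1 arrays were the lowest of all 26. Its range over the arrays, 6.91, exceeded that of 99.4% of genes, whose median range was 2.23. Immobilized minus chemostat was -3.64 ± 0.77, with every bead array below both chemostat arrays, immobilized minus log phase was -1.90 ± 0.77, and the chemostat itself stood 1.73 ± 1.03 from log phase.

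SUL2, the gene of the second high-affinity sulfate permease, had another order of groups. It stood at -3.04 and -3.80 at day 0, -0.81, -1.18, -0.37 and 0.71 at day 1, -0.13, -0.53, 0.87 and 0.32 at day 3, -0.01, 0.48, 0.93 and 0.26 at day 5, 0.50, 0.16 and 0.32 at day 10 and 0.37, 0.49 and 0.09 at day 17. In free cells it stood at -1.84 and -1.23 in stationary phase, -0.01 and -0.37 in the chemostat and -0.23 and -0.12 in log phase. Day 0 was far below every other group and stationary phase next, while the chemostat and log phase overlapped. Day 1 minus day 0 was 3.0 ± 0.41 (2.63 ± 0.35 without the array labelled day 1 replicate 4), the largest of the 10 genes in that comparison. Immobilized minus stationary phase was 1.69 ± 0.35, with all 18 bead arrays above both stationary arrays. The permease genes differed in where they were lowest: SUL1 at day 1 and SUL2 at day 0.

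MET3 encodes ATP sulfurylase, which makes adenylyl sulfate in the first step of sulfate activation. In beads MET3 stood at -0.77 and -0.79 at day 0, -0.47, -0.19, 1.14 and 0.05 at day 1, -0.71, -0.10, 0.54 and 0.25 at day 3, -0.66, 0.38, 0.17 and 0.40 at day 5, 0.18, -0.41 and -0.35 at day 10 and -0.04, -0.31 and -0.78 at day 17. Stationary phase gave -1.06 and 0.14, so these 2 arrays disagreed by more than 1. The chemostat arrays stood at 1.63 and 1.11, and the log-phase arrays, the highest of all, at 2.24 and 1.96. Every array of days 1 to 17 lay below both log-phase arrays, with a difference of -2.17 ± 0.36, or -1.63 after quantile normalization. The day means of days 1 to 17 spanned only -0.38 to 0.13. Immobilized minus chemostat was -1.45 ± 0.36, and day 1 replicate 3 overlapped the chemostat.

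MET14 encodes adenylyl sulfate kinase, the second activating step. It stood at -0.54 and 0.11 at day 0, -1.30, -0.92, -0.30 and 0.24 at day 1, -0.46, -0.92, 0.34 and -0.51 at day 3, 0.25, 0.72, 0.41 and -0.39 at day 5, 0.52, 0.84 and 0.77 at day 10 and -0.08, 0.17 and -0.69 at day 17. Stationary phase gave -2.09 and -1.23, the chemostat 0.07 and -0.23 and log phase 0.80 and 0.41. Stationary phase had the lowest mean and day 10 the highest. Immobilized minus stationary phase was 1.62 ± 0.34 although one day 1 array overlapped, stationary phase minus log phase was -2.27 ± 0.46, and immobilized minus log phase was -0.65 ± 0.34.

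MET16 encodes phosphoadenylyl sulfate reductase, which makes sulfite. Its arrays stood at -1.10 and -0.89 at day 0, -1.78, -1.58, 0.01 and 0.28 at day 1, -0.19, -1.26, 0.47 and -0.68 at day 3, -0.22, 0.65, 0.54 and -0.62 at day 5, 0.69, 1.49 and 1.57 at day 10 and 0.09, -0.01 and -0.63 at day 17, with -2.01 and -1.18 in stationary phase, 0.39 and 0.23 in the chemostat and 0.94 and 0.55 in log phase. As for MET14, day 10 had the highest mean and stationary phase the lowest. Stationary phase minus log phase was -2.34 ± 0.61 and immobilized minus stationary phase 1.59 ± 0.45. All 3 activation and reduction genes were lower in stationary than in log-phase cells on every array, as were 41.5% of all genes. Their differences were -2.56 to -2.27, or -1.84 to -1.64 after quantile normalization.

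**Figure D1:**
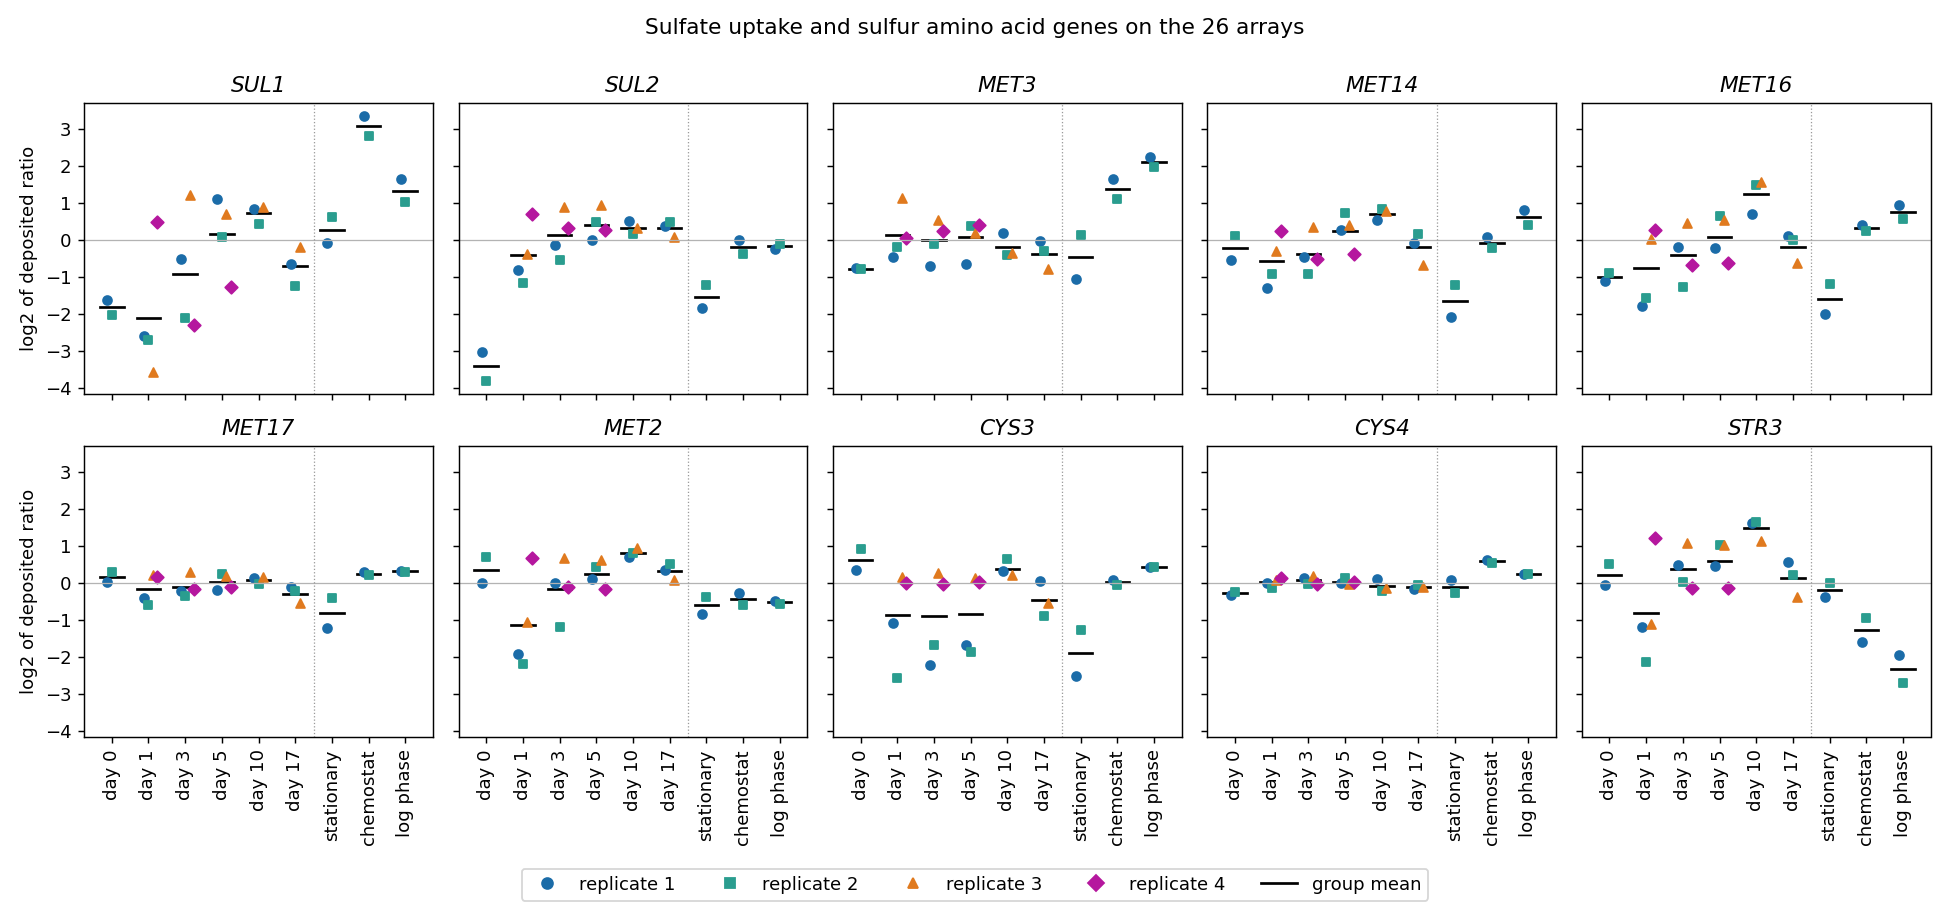
Log2 of the deposited ratio (vertical axis) of the 10 genes, 1 panel a gene, on each of the 26 arrays; groups run along the horizontal axis with bead samples left of the dotted line and free cells right of it, colours and shapes give the replicate number, and the black bar is the group mean. SUL1 is highest in the chemostat (2.79 and 3.34), SUL2 is lowest at day 0, MET3 is highest in log phase, STR3 is lowest in log phase, and CYS4 hardly moves.

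MET2 and MET17 act where reduced sulfur meets the carbon chain: MET2 encodes homoserine O-acetyltransferase, and MET17 O-acetylhomoserine sulfhydrylase, which fixes sulfide into homocysteine. MET2 stood at 0.0029 and 0.69 at day 0, -1.94, -2.20, -1.07 and 0.66 at day 1, -0.01, -1.20, 0.65 and -0.11 at day 3, 0.10, 0.43, 0.62 and -0.16 at day 5, 0.69, 0.81 and 0.93 at day 10 and 0.35, 0.51 and 0.07 at day 17. Free cells gave -0.84 and -0.38 in stationary phase, -0.27 and -0.61 in the chemostat and -0.50 and -0.56 in log phase. The free-cell groups overlapped one another, so the movement of MET2 was among the bead arrays: 3 day 1 arrays were low and the day 10 arrays were the highest as a group. Day 1 minus day 0 was -1.48 ± 0.54, or -2.08 ± 0.40 without the array labelled day 1 replicate 4, the only day 1 array above 0. Day 17 minus day 1 was 1.44 ± 0.47 with it and 2.04 ± 0.35 without it.

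MET17 moved little. Its arrays stood at 0.02 and 0.30 at day 0, -0.42, -0.59, 0.21 and 0.14 at day 1, -0.23, -0.36, 0.29 and -0.18 at day 3, -0.20, 0.23, 0.19 and -0.12 at day 5, 0.13, -0.03 and 0.15 at day 10 and -0.13, -0.23 and -0.54 at day 17, and at -1.23 and -0.42 in stationary phase, 0.28 and 0.21 in the chemostat and 0.32 and 0.30 in log phase. Its range of 1.56 exceeded that of 19.1% of genes. Stationary phase held the lowest mean, with a difference from log phase of -1.13 ± 0.29, and all bead arrays of days 1 to 17 lay just below the 2 log-phase arrays, by -0.40 ± 0.22.

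The transsulfuration genes went separate ways. CYS4 encodes cystathionine beta-synthase, which starts the conversion of homocysteine to cysteine, and CYS3 cystathionine gamma-lyase, which ends it; STR3 encodes cystathionine beta-lyase, which runs the opposite way from cysteine towards homocysteine. CYS4 had arrays of -0.32 and -0.24 at day 0, 0.0014, -0.14, 0.08 and 0.12 at day 1, 0.12, -0.02, 0.19 and -0.03 at day 3, -0.01, 0.14, -0.04 and 0.01 at day 5, 0.11, -0.22 and -0.13 at day 10 and -0.18, -0.06 and -0.11 at day 17. It stood at 0.06 and -0.28 in stationary phase, 0.62 and 0.54 in the chemostat and 0.23 and 0.25 in log phase. CYS4 was the steadiest of the 10, with a range of 0.944 that exceeded that of 1.84% of genes. Its bead arrays of days 1 to 17 nevertheless lay below all chemostat arrays (-0.60 ± 0.13) and all log-phase arrays (-0.26 ± 0.13).

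CYS3 stood at 0.33 and 0.90 at day 0, -1.10, -2.57, 0.15 and -0.01 at day 1, -2.22, -1.69, 0.28 and -0.02 at day 3, -1.69, -1.87, 0.14 and 0.01 at day 5, 0.30, 0.63 and 0.22 at day 10 and 0.06, -0.91 and -0.55 at day 17. In free cells it stood at -2.51 and -1.28 in stationary phase, 0.08 and -0.06 in the chemostat and 0.43 and 0.42 in log phase. Stationary phase was lowest by its mean, and the difference from log phase was -2.32 ± 0.84. Within each of days 1, 3 and 5 the arrays fell apart into a low and a high pair, so that immobilized minus log phase (-0.97 ± 0.62) averages unlike arrays. Day 1 minus day 0 was -1.50 ± 0.72, with all 4 day 1 arrays below both day 0 arrays.

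STR3 had a pattern unlike that of MET3, with the lowest correlation of any pair of the 10 genes (-0.528 over the 26 arrays). It stood at -0.06 and 0.50 at day 0, -1.19, -2.13, -1.12 and 1.20 at day 1, 0.48, 0.01, 1.08 and -0.14 at day 3, 0.46, 1.02, 1.01 and -0.15 at day 5, 1.62, 1.63 and 1.14 at day 10 and 0.56, 0.20 and -0.38 at day 17. Stationary phase gave -0.39 and -0.01, the chemostat -1.59 and -0.96 and log phase -1.96 and -2.72. Log phase was its lowest group, where MET3 was highest, and day 10 its highest. Immobilized minus log phase was 2.68 ± 0.51, with 1 of the 18 bead arrays, day 1 replicate 2, inside the log-phase range, and it was 1.77 after quantile normalization. Immobilized minus chemostat was 1.62 ± 0.51 and stationary phase minus log phase 2.14 ± 0.68, the one positive difference among the 10 genes there.

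**Figure D2:**
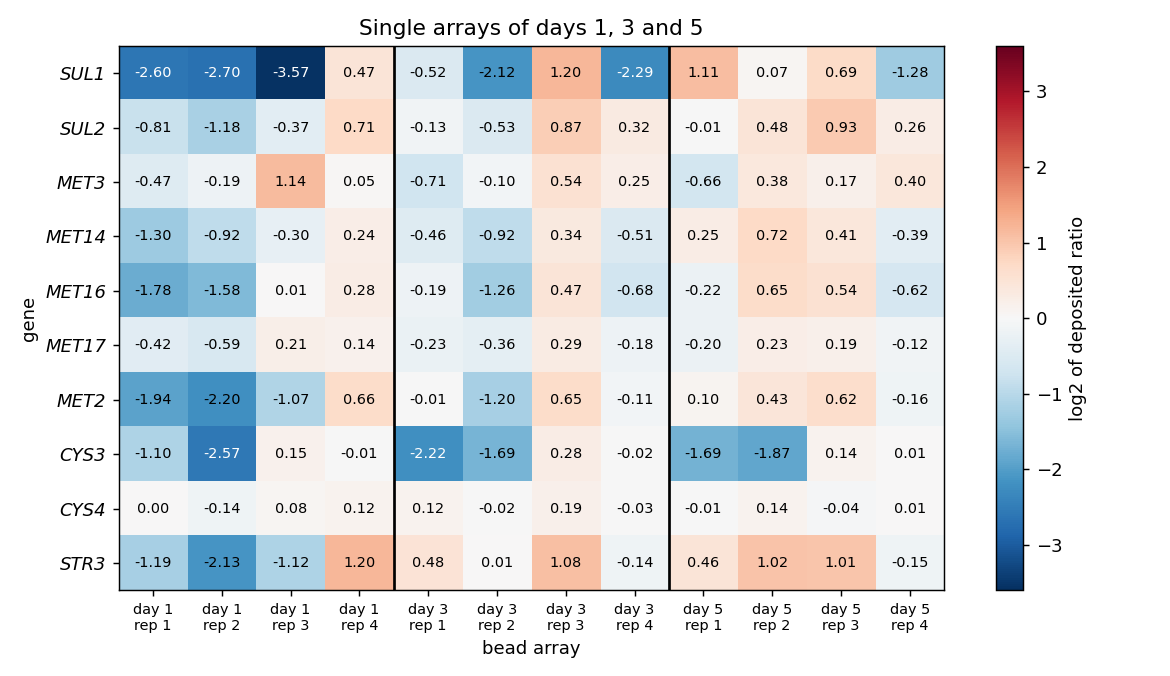
Log2 of the deposited ratio (colour, with the value printed) of the 10 genes (rows) on the single bead arrays of days 1, 3 and 5 (columns). The array labelled day 1 replicate 4 is above 0 for 9 genes while replicates 1 and 2 of that day are low, and the CYS3 row is low on arrays numbered 1 and 2 and near 0 on those numbered 3 and 4.

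The single arrays of days 1, 3 and 5 differed from one another more for several of these genes than for most genes. At day 1 the SD over the 4 arrays was 1.77 for SUL1, larger than for 99.2% of genes, 1.42 for STR3 (97.4%), 1.29 for MET2 (96.1%) and 1.26 for CYS3 (95.7%), against a median of 0.482 over all genes. It was 0.116 for CYS4, larger than for 2.44% of genes. At day 3 the SD exceeded that of 99.7% of genes for SUL1, 98.8% for CYS3, 92.2% for MET2 and 79.9% for STR3. By day 5 only SUL1 (96.7%) and CYS3 (97.2%) of these stayed so high, with 73.1% for STR3 and 42.6% for MET2. On the day 1 arrays numbered 1 to 4 the median of the 10 genes was -1.14, -1.38, -0.14 and 0.26, with 1, 0, 5 and 9 genes above 0. Without the array labelled day 1 replicate 4 the SD over the other 3 was 0.53 for SUL1, around a mean of -2.96, 0.57 for STR3 and 0.59 for MET2, around a mean of -1.74. It was 1.36 for CYS3 and 0.86 for MET3, both larger than with that array (1.26 and 0.70), and 0.98 for MET16, against 1.06 with it.

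CYS3 split by replicate number on all 3 days. The 6 arrays numbered 1 and 2 lay at -2.57 to -1.10 with a median of -1.78, and the 6 numbered 3 and 4 at -0.02 to 0.28 with a median of 0.07, with no overlap. The other 9 genes overlapped between these sets, as MET3 did with -0.71 to 0.38 on arrays numbered 1 and 2 and 0.05 to 1.14 on those numbered 3 and 4. The split was not particular to CYS3. Among the other sulfur genes MET1, MET8, MET12, SAM1 and SAM3 also split without overlap. MET8 lay at -3.24 to -1.41 on arrays numbered 1 and 2 and at -0.73 to 1.25 on those numbered 3 and 4. The share of all genes that split so was not counted. Arrays of one number also ran together over the whole genome on days 3 and 5, with correlations of 0.804, 0.897 and 0.801 for numbers 1, 3 and 4; those numbered 2 were not each other's closest. What the numbers stand for is not given in the labels.

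Among the days, day 10 had the highest median of the 10 genes, 0.51, 0.53 and 0.55 on its arrays, with 10, 7 and 8 genes above 0. Day 17 gave 0.01, -0.04 and -0.46. Stationary phase gave -1.15 and -0.40, with 1 and 2 genes above 0, the chemostat 0.18 and 0.07 and log phase 0.38 and 0.35. The SD over the 3 day 10 arrays lay between 0.10 (MET17) and 0.49 (MET16), against a median of 0.244 over all genes. Day 10 was the highest group by mean for MET14, MET16, MET2 and STR3, and its arrays were clear of the group next lower by mean for MET2 and STR3 but not for MET14 and MET16. The margin for MET2 was small, 0.694 against 0.687 at day 0. For STR3 the array labelled day 1 replicate 4 (1.20) lay above the lowest day 10 array (1.14).

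**Figure D3:**
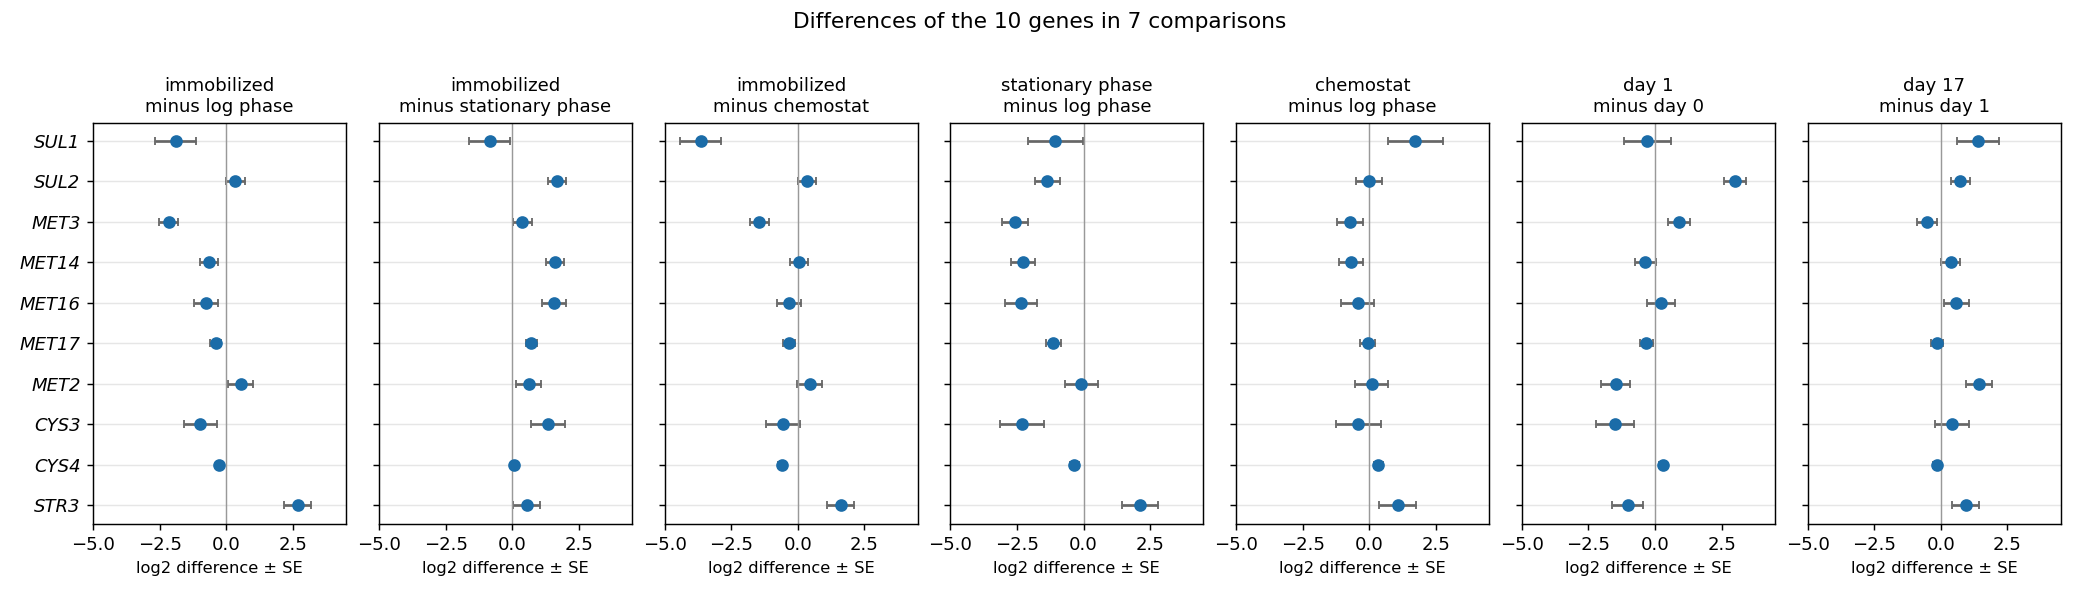
Log2 differences (points) ± SE (bars) from limma for the 10 genes in 7 comparisons, 1 panel each, with positive values higher on the side named first. STR3 is positive and MET3 negative against log phase, 9 of 10 genes are negative in stationary minus log phase, and SUL1 against the chemostat is the most negative point at -3.64.

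For the tests the other genes of sulfur metabolism were used, a list of 51 written from general knowledge of yeast with earlier results of these data known, of which 50 were measured and none is among the 10. Calls are by limma, with Benjamini-Hochberg adjusted p under 0.05 over all 5445 genes and a difference of 2-fold or more, and adjusted p-values below are of this kind. Beside them stand 46 genes for making other amino acids under the activator Gcn4. Without the array labelled day 1 replicate 4, immobilized cells gave medians of the 10 genes of -0.56 against log phase, 0.61 against stationary phase and -0.37 against the chemostat. With days 10 and 17 alone as the immobilized side the medians were -0.34, 1.08 and 0.08. Several comparisons share the same log-phase, stationary or bead arrays, so they are not independent of one another.

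Immobilized cells against log-phase cells had lower MET3, MET17 and CYS4 on every array, 3 of 10 genes, beside 15.6% of all genes, and none of the 10 was higher on every array (13.4% of all genes). The median difference of the 10 was -0.53, against -0.01 over all genes, -0.16 over the other sulfur genes and -1.23 over the other amino acid genes. Among the other sulfur genes, 4 of 8 uptake and export genes rose and 1 fell, and 2 of 3 genes of organic sulfur use and sulfur sparing rose. JLP1, a sulfonate dioxygenase that frees sulfite from sulfonates, rose by 3.89 ± 0.76 (adjusted p = 0.000345), and PDC6, a minor pyruvate decarboxylase poor in sulfur amino acids, by 3.62 ± 0.54 (adjusted p = 2.67e-05). YCT1, a cysteine transporter, rose by 2.95 ± 0.44 (adjusted p = 2.35e-05) and MUP1, the high-affinity methionine permease, by 2.36 ± 0.87 (adjusted p = 0.0301). Bead arrays of JLP1 and MUP1 overlapped log phase. The day 1 arrays of JLP1 other than that labelled replicate 4 stood at -3.45 to -2.35, against -4.16 and -3.31 in log phase. In all 8 of 50 were called higher and 10 lower, 16% and 20%, where 15.9% and 14.7% of all genes were.

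Of the 12 genes of methionine synthesis and the methyl cycle 4 fell and 0 rose, and of the 5 in methionine salvage 2 fell and 0 rose. Beside these counts, 14.7% of all genes fell and 15.9% rose. MRI1, an isomerase of the salvage pathway that recovers methionine from methylthioadenosine, differed by -2.34 ± 0.32 (adjusted p = 9.38e-06), and the homocysteine methyltransferase gene SAM4 by -2.09 ± 0.35 (adjusted p = 7.21e-05). HOM2, aspartate semialdehyde dehydrogenase on the way to homoserine, differed by -2.02 ± 0.48 (adjusted p = 0.00176) and the S-methylmethionine permease gene MMP1 by -1.89 ± 0.46 (adjusted p = 0.00196). None of the 5 genes of sulfite reduction and siroheme synthesis was called, and 0 of 46 other amino acid genes were called higher and 31 lower. Repeating quantile normalization on the log2 ratios left 9 calls (3 higher, 6 lower) and ended those of JLP1, MUP1, HOM2 and, among the regulators, MET30. Without log phase replicate 2 the MUP1 difference was 1.46 (adjusted p = 0.365).

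Immobilized cells against stationary-phase cells had positive differences for 9 of the 10 genes, SUL1 being the exception at -0.84 ± 0.77. The median of the 10 was 0.68, against -0.06 over all genes, 0.49 over the other sulfur genes and -0.28 over the other amino acid genes. SUL2 alone of the 10 was higher on every bead array (11.7% of all genes) and none was lower on every one (17.0%). MET17 differed by 0.73 ± 0.22, CYS3 by 1.35 ± 0.62 and MET3 by 0.39 ± 0.36. The last rests on 1 array or the other, since the MET3 difference was -0.22 without stationary replicate 1 and 0.99 without stationary replicate 2, and that of MET17 0.32 and 1.14. CYS4 gave 0.26 and -0.08.

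Of the other sulfur genes 13 were called higher and 7 lower against stationary phase, 26% and 14%, where 11.8% and 14.4% of all genes were. IRC7, a beta-lyase acting on cysteine conjugates, was higher by 2.31 ± 0.34 (adjusted p = 1.93e-05), and SAH1, which hydrolyses S-adenosylhomocysteine, by 2.07 ± 0.22 (adjusted p = 2.46e-07). The methylenetetrahydrofolate reductase gene MET13 was higher by 2.06 ± 0.37 (adjusted p = 0.000148) and the S-adenosylmethionine synthetase gene SAM2 by 1.83 ± 0.23 (adjusted p = 3.03e-06). In sulfite reduction and siroheme synthesis 3 of 5 genes were called higher and 0 lower. Lower were STR2, cystathionine gamma-synthase, at -2.45 ± 0.23 (adjusted p = 5.05e-08), MMP1 at -2.19 ± 0.46 (adjusted p = 0.000632), the regulator gene CBF1, described below, and MET12, a second methylenetetrahydrofolate reductase gene, at -1.67 ± 0.40 (adjusted p = 0.00187). Quantile normalization left 7 calls (4 higher, 3 lower) and ended that of MET12, and 12 were left (6 and 6) without stationary replicate 1.

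Against the chemostat the immobilized cells had lower SUL1 and CYS4 on every array, 2 of 10 genes beside 11.3% of all genes, and none of the 10 higher on every array (7.79%). Over the 10 genes the median was -0.33, against -0.03 over all genes, -0.10 over the other sulfur genes and -1.41 over the other amino acid genes, with the change of sign given above for days 10 and 17 alone. JLP1 was higher by 3.62 ± 0.76 (adjusted p = 0.00130), YCT1 by 1.72 ± 0.44 (adjusted p = 0.00496) and DUG3, a glutathione-degrading enzyme gene, by 1.20 ± 0.34 (adjusted p = 0.00973). For each of these genes the bead arrays overlapped those of the chemostat. SAM4 was lower at -2.98 ± 0.35 (adjusted p = 2.80e-06), HOM2 at -2.22 ± 0.48 (adjusted p = 0.00163) and MDE1, a salvage enzyme gene, at -1.52 ± 0.28 (adjusted p = 0.000411). Called were 3 higher and 9 lower of 50, 6% and 18%, where 9.55% and 9.94% of all genes were; all 12 genes of methionine synthesis and the methyl cycle had negative differences, of which 3 were called.

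Single arrays changed these counts: 7 were left (1 higher, 6 lower) without either chemostat array, and 7 with quantile normalization (1 higher, 6 lower). JLP1 had adjusted p = 0.0556 without chemostat replicate 1, YCT1 had adjusted p = 0.120 without chemostat replicate 2, and DUG3 had 0.0661 and 0.161 without the one or the other. Quantile normalization ended the calls of YCT1, DUG3 and HOM2.

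Stationary-phase cells against log-phase cells had 8 of the 10 genes lower on every array (41.5% of all genes) and STR3 higher (43.5%), with MET2 overlapping. Over the 10 genes the median was -1.25, against 0.04 over all genes, -0.53 over the other sulfur genes and -1.37 over the other amino acid genes. MET3 differed by -2.56 ± 0.49, SUL2 by -1.36 ± 0.47, SUL1 by -1.06 ± 1.03 and CYS4 by -0.35 ± 0.18. Of the 50 other sulfur genes 19 fell and 8 rose, 38% and 16%, where 21.7% of all genes fell and 22.8% rose. The largest falls were in SAM1, the other S-adenosylmethionine synthetase gene, at -2.89 ± 0.66 (adjusted p = 0.00108), SAH1 at -2.59 ± 0.29 (adjusted p = 8.59e-07), the glutathione synthetase gene GSH2 at -2.32 ± 0.33 (adjusted p = 1.25e-05) and SAM2 at -2.30 ± 0.31 (adjusted p = 7.50e-06). PDC6 rose by 3.10 ± 0.73 (adjusted p = 0.00152) and the sulfite pump gene SSU1 by 2.84 ± 0.36 (adjusted p = 3.20e-06). Quantile normalization left 11 calls (3 higher, 8 lower), ended those of PDC6, MET30 and SAM1, and gave STR3 a difference of 1.17. With it the differences were also smaller for SUL2 (-1.05), MET3 (-1.84), MET14 (-1.64), MET16 (-1.66) and CYS3 (-1.67).

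By role, 7 of 12 genes of methionine synthesis and the methyl cycle fell in stationary phase and 1 rose, 3 of 5 in sulfite reduction and siroheme fell, and 3 of 5 in methionine salvage fell. Beside these counts, 21.7% of all genes fell and 22.8% rose. Of the uptake and export genes 2 of 8 rose, near the share of all genes, and 0 fell. Of the 46 other amino acid genes 25 fell and 2 rose.

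Chemostat cells against log-phase cells had SUL1 higher and the activation and reduction genes MET3, MET14 and MET16 lower on both arrays. The median of the 10 was -0.04, against -0.0011 over all genes and 0.08 over the other sulfur genes, and SUL1, CYS4 and STR3 were higher on both arrays (31.3% of all genes) and MET3, MET14, MET16, MET17 and CYS3 lower (32.7%). Apart from SUL1, the differences were 1.06 ± 0.68 for STR3, 0.34 ± 0.18 for CYS4, -0.73 ± 0.49 for MET3 and -0.69 ± 0.46 for MET14, and -0.01 ± 0.47 for SUL2, whose arrays overlapped. Of the other sulfur genes 3 were called higher and 0 lower, 6% and 0%, where 1.76% and 0.514% of all genes were. They were MUP1 at 4.40 ± 1.17 (adjusted p = 0.0491), PDC6 at 3.81 ± 0.73 (adjusted p = 0.00430) and SSU1 at 1.66 ± 0.36 (adjusted p = 0.0104). With 2 arrays a side these calls did not last: 0 or 1 was left without any 1 of the 4 arrays, and 0 with quantile normalization, where the STR3 difference was 0.25 and that of MET17, -0.06 otherwise, was 0.03. MUP1 lost its call without any 1 of them (adjusted p = 0.110 to 0.336).

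PDC6 had adjusted p = 0.0756 without log phase replicate 1 and 0.0834 without chemostat replicate 2, and SSU1 had adjusted p = 0.126 without log phase replicate 2, 0.0586 without chemostat replicate 1 and 0.167 without chemostat replicate 2. The MUP1 arrays themselves stood at 2.19 and 2.07 in the chemostat and -1.38 and -3.17 in log phase.

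Day 1 cells against day 0 cells had higher SUL2, MET3 and CYS4 on every array (3 of 10 genes, beside 20.8% of all genes) and lower CYS3 (19.9%). The median of the 10 was -0.30, or -0.52 without the array labelled day 1 replicate 4, against -0.03 over all genes and -0.41 over the other sulfur genes. MET3 differed by 0.91 ± 0.42 and STR3 by -1.03 ± 0.59, or -1.70 ± 0.42 without that array. SUL1 differed by -0.28 ± 0.89 with it and -1.14 ± 0.75 without it.

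Of the other sulfur genes 11 were called lower and 5 higher at day 1 against day 0, 22% and 10%, where 10.3% and 9.97% of all genes were. The permease genes MUP1 and MMP1 fell the most. MUP1 differed by -4.76 ± 1.01 (adjusted p = 0.00134), MMP1 by -4.61 ± 0.53 (adjusted p = 2.05e-06), JLP1 by -3.69 ± 0.89 (adjusted p = 0.00353) and the salvage gene ADI1 by -2.43 ± 0.53 (adjusted p = 0.00165). The MUP1 arrays stood at -2.40, -3.0, -3.29 and 1.43 at day 1 against 2.83 and 3.07 at day 0, so that the array labelled day 1 replicate 4 was again the high one. JLP1 overlapped between these days, with a highest day 1 value of 1.26 and a lowest day 0 value of 1.13. SAH1 rose by 3.01 ± 0.25 (adjusted p = 2.60e-08), MET5, a subunit of sulfite reductase, by 1.62 ± 0.36 (adjusted p = 0.00192), the thioredoxin gene TRX1 by 1.51 ± 0.34 (adjusted p = 0.00217) and MET22, the phosphatase that clears the by-product of sulfate reduction, by 1.43 ± 0.37 (adjusted p = 0.00563). Without the array labelled day 1 replicate 4, 13 were lower and 5 higher, where 12.7% and 11.8% of all genes were.

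The day 0 group held 2 arrays. Without day 0 replicate 2, 10 calls were left (4 higher, 6 lower), and TRX1 had adjusted p = 0.0723 and JLP1 0.0890; without day 0 replicate 1, MET22 had adjusted p = 0.0540. A fit to these groups alone left 7 calls (3 higher, 4 lower) and ended those of MUP1, JLP1, TRX1 and MET22, and quantile normalization left 5 (2 higher, 3 lower) and ended the same 4 and that of ADI1.

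Day 17 cells against day 1 cells overlapped in all 10 genes, where 3.43% of all genes were higher and 3.36% lower on every array. The median of the 10 was 0.50, or 0.82 without the array labelled day 1 replicate 4, against 0.03 over all genes. SUL1 differed by 1.40 ± 0.79 with it and 2.26 ± 0.67 without it, STR3 by 0.94 ± 0.52 and 1.61 ± 0.37, SUL2 by 0.73 ± 0.36 and 1.10 ± 0.32, and MET3 by -0.51 ± 0.37 and -0.54 ± 0.40. By limma 0 of the other sulfur genes were called, where 0.257% of all genes were called higher and 0.0367% lower. An unadjusted p under 0.05 was found for 14 of the 50, and for 1099 of all 5445 genes.

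Without the array labelled day 1 replicate 4, 10 of the 50 were called higher and 4 lower, 20% and 8%, where 7.53% and 4.54% of all genes were. MUP1 then differed by 3.08 ± 0.70 (adjusted p = 0.00510), JLP1 by 2.94 ± 0.54 (adjusted p = 0.00129), MET8, which completes siroheme, by 2.37 ± 0.82 (adjusted p = 0.0464) and MET30 by 1.80 ± 0.36 (adjusted p = 0.00236). SAM4 differed by -1.44 ± 0.30 (adjusted p = 0.00306), MRI1 by -1.28 ± 0.27 (adjusted p = 0.00327), HOM2 by -1.21 ± 0.42 (adjusted p = 0.0454) and MDE1 by -1.15 ± 0.24 (adjusted p = 0.00277). The array labelled day 1 replicate 4 was picked out from these same values. Calls and adjusted p-values without it, here and for the regulators below, are therefore a description. Leaving out day 17 replicate 1, another array far from its group, gave 1 call, a lower one, and a median of the 10 of 0.38.

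**Figure D4:**
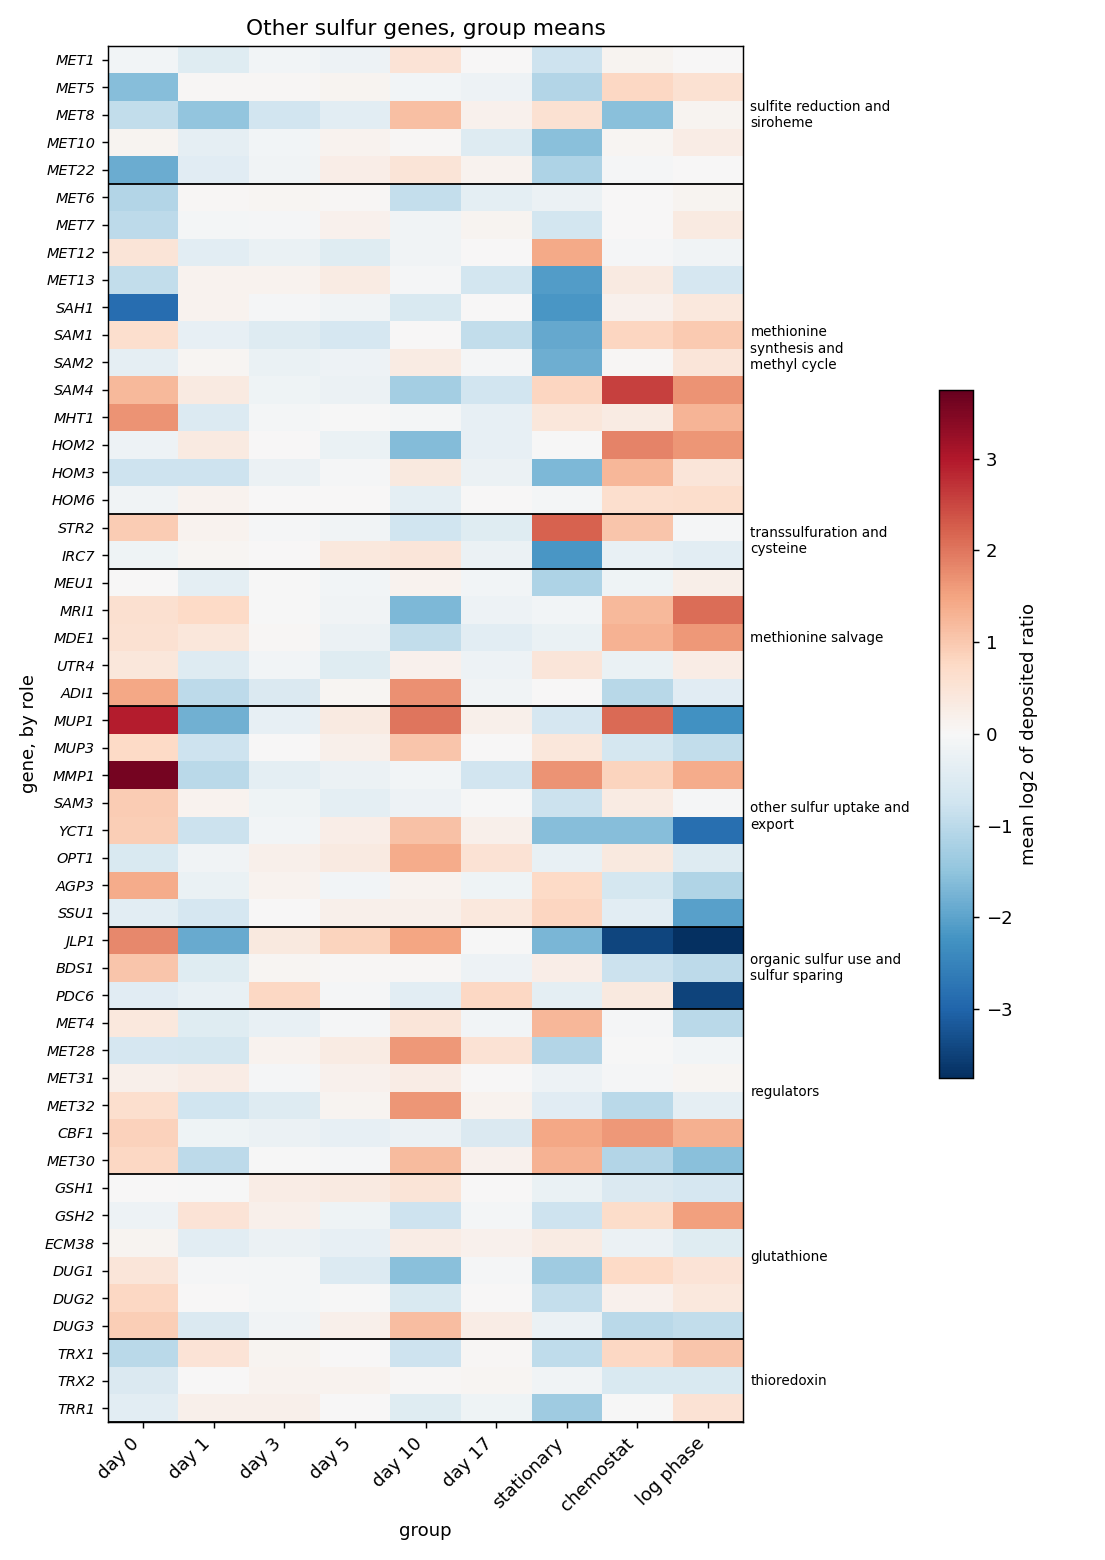
Mean log2 of the deposited ratio (colour) of the 50 other sulfur genes (rows, by role) in each of the 9 groups (columns, bead days in order and then free cells). MUP1, MMP1 and JLP1 are high at day 0 and low at day 1, JLP1 and PDC6 are lowest in log phase, and SAH1, MET13 and IRC7 are low in stationary phase.

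The regulators of the pathway did not move as one. MET30 stood at 1.27 and 1.34 in stationary phase, -1.01 and -1.19 in the chemostat and -1.49 and -1.66 in log phase, and at -1.47, -2.45, -0.98 and 0.91 at day 1 and 1.05, 1.26 and 1.23 at day 10. It was called in immobilized against log phase (1.63 ± 0.48 (adjusted p = 0.00817)), in stationary against log phase (2.88 ± 0.65 (adjusted p = 0.000995)), in immobilized against stationary phase (-1.25 ± 0.48 (adjusted p = 0.0411)) and in day 1 against day 0 (-1.77 ± 0.56 (adjusted p = 0.0214)). Against the chemostat it was not called at 1.16 ± 0.48 (adjusted p = 0.0678), but was without day 1 replicate 2 or 4 (adjusted p = 0.0207 and 0.0191). The call against log phase was lost without either log-phase array (adjusted p = 0.0648 and 0.0861), that against stationary phase without either stationary array (0.186 and 0.196) and without day 1 replicate 1, day 10 replicate 1 or day 17 replicate 3 (0.050, 0.0514 and 0.0534), and that against day 0 without either day 0 array (0.0808 and 0.157) or day 1 replicate 2 (0.0586).

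MET4, the activator, was called in stationary against log phase (2.26 ± 0.35 (adjusted p = 2.82e-05)) and in immobilized against stationary phase (-1.34 ± 0.26 (adjusted p = 0.000291)). It missed the 2-fold minimum against log phase at 0.92 ± 0.26 (adjusted p = 0.00579) and at day 1 against day 0 at -0.84 ± 0.30 (adjusted p = 0.0398), where it was called without the array labelled day 1 replicate 4 at -1.09 (adjusted p = 0.00305). CBF1, a DNA-binding partner of Met4, was lower in immobilized cells than in each free-cell group on every array: by -1.61 ± 0.29 (adjusted p = 0.000168) against log phase, -1.75 ± 0.29 (adjusted p = 6.52e-05) against stationary phase and -1.90 ± 0.29 (adjusted p = 8.00e-05) against the chemostat. At day 1 against day 0 CBF1 differed by -1.01 ± 0.34 (adjusted p = 0.0282), a call lost without either day 0 array (adjusted p = 0.0553 and 0.263) and, as its size then fell below 2-fold, without day 1 replicate 2 or 4 (-1.0 and -0.93).

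MET28, another partner, stood at -1.05, -1.28, -1.39 and 1.09 at day 1 and 1.38, 1.68 and 1.81 at day 10, and was called against stationary phase only (1.48 ± 0.45 (adjusted p = 0.0115)), a call lost without either stationary array (adjusted p = 0.102 and 0.0910). At day 17 against day 1 it was called without the array labelled day 1 replicate 4 (1.78 ± 0.35 (adjusted p = 0.00203)). MET32, a DNA-binding factor, was not called in any of the 7 comparisons with all arrays, with differences of -1.36 ± 0.62 (adjusted p = 0.105) at day 1 against day 0 and 1.13 ± 0.54 (adjusted p = 0.110) against the chemostat. Without the array labelled day 1 replicate 4 its differences were -1.94 (adjusted p = 0.00756) at day 1 against day 0 and 1.46 ± 0.48 (adjusted p = 0.0358) at day 17 against day 1. With days 10 and 17 alone as the immobilized side, MET4 (1.18) and MET28 (1.18) were called against log phase and MET32 (1.89) and MET30 (1.77) against the chemostat, and MET30 lost its call against stationary phase. Quantile normalization ended every call of MET30 and MET28, that of MET4 against stationary phase and that of CBF1 at day 1. MET31, a close relative of MET32, was not called either, and its differences lay between -0.27 and 0.34.

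Across the 26 arrays the 45 pairs of the 10 genes had a median Pearson correlation of 0.395, from -0.528 for MET3 with STR3 to 0.917, and 41 were positive. Taken as deviations from the day means over the 18 bead arrays, the median was 0.602 and 44 were positive. These points share arrays, and deviations of one array, such as that labelled day 1 replicate 4, enter every pair. Pairs of other genes were not computed, so whether these values are high for this series is not known. Of all other genes, HOM3, aspartate kinase, had the pattern most like the mean of the 10 over the 26 arrays (r = 0.868), followed by UTP15 (0.832), SQT1 (0.831), MET1 (0.831), SLA2 (0.829) and CDC6 (0.829). Over deviations from the day means on the bead arrays they were ARG3 (0.954), MUP3 (0.940), DLD3 (0.932), DMA1 (0.929), FMS1 (0.922) and PUT3 (0.919). HOM3, MET1 and MUP3 are among the other sulfur genes.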

How the data were processed

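Transcripts were measured on 26 Affymetrix yeast arrays of 10928 probe sets. The deposited values are linear ratios, made by the authors with RMA per the submitters' processing notes (version and further steps not given in the sources used here). From the values, each probe set is set against its own median over the arrays (probe set medians 0.9905 to 1.047), with array medians of 0.998 to 1, so absolute signal is lost and no filter on dim probe sets was possible. With no counts behind array values, precision rests on the number of arrays.

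Log2 of the ratios was taken. The platform annotation tied 5498 probe sets to 1 yeast gene each (5449 genes); for 47 genes with several, the probe set of highest mean ratio stood for the gene, and 4 genes with missing values were left out. Another 3683 probe sets were not listed there, 1 had several symbols and 1746 were of another organism. limma 3.58.1 (lmFit and eBayes, R 4.3.3) was fitted to 9 group means, with 17 residual and 4.02 prior degrees of freedom, and tested on simulated data. Called means a Benjamini-Hochberg adjusted p under 0.05 over 5445 genes and an absolute log2 difference of at least 1. SOA1 was not measured here, and 46 of the 48 amino acid genes written were used.

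The 10 genes and the lists were chosen with earlier results of these data known. Named are the 10, the 6 regulators, up to 4 called other sulfur genes a direction and comparison with the largest difference, and the 6 genes most like the mean of the 10 by each of 2 correlations. No coordinates are given, since the values name no genome build. Equal replicate numbers did not pair the arrays of groups set against each other (correlations of deviations -0.317 to 0.264), so no block was used. Arrays of equal number on days 3 and 5, both in the immobilized mean, did correlate (0.548 to 0.864). So did those numbered 2 on days 1 and 5 (0.756), days 1 and 3 (0.444) and days 5 and 17 (0.501). Other pairs of bead days varied, down to -0.533 for number 3 on days 3 and 17. The SE of the immobilized mean takes all these arrays as independent. Alternatives were quantile normalization, averaged probe sets, x_at and s_at sets left out, a trended and robust prior, only the groups compared, the replicate block, other days in the immobilized mean, and each array left out (a group then of 1 array is taken to vary like the rest). matplotlib 3.10.9 (Python 3.11.15) drew the figures.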

Additional observations from a re-analysis of the deposited data

Results flagged for a closer look

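In groups of 4 arrays, 39 named genes were looked at for 1 array far from the rest, in 117 groups, and 5 exceeded Dixon's critical value of 0.829, where chance gives about 1 in 20. Of these 5, 3 were on the array labelled day 1 replicate 4: MET28 at 1.09 (others -1.39 to -1.05), DUG3 at 0.66 (others -1.01 to -0.87) and MDE1 at -0.51 (others 0.63 to 0.82). GSH2 stood at -0.12 on day 3 replicate 3 (others 0.27 to 0.33), and MET5 at -0.75 on day 5 replicate 1 (others 0.37 to 0.45).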

How the results depend on the processing

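Of the alternatives, averaging probe sets, leaving out x_at and s_at sets and the trended and robust prior kept each count of called other sulfur genes within 1.5 times and each median difference of the 10 genes within its spread, as did other sets of days, although with days 10 and 17 alone the median against the chemostat was 0.08. Quantile normalization left 9 calls in place of 18 in immobilized minus log phase, 7 of 20 against stationary phase, 7 of 12 against the chemostat, 11 of 27 in stationary minus log phase, 0 of 3 in chemostat minus log phase and 5 of 16 in day 1 minus day 0; over all genes it left 516 of 1662, 562 of 1431, 557 of 1061, 623 of 2421, 10 of 124 and 429 of 1106. The counts do not show whether the genes left were among the first. The cause was not tested. A fit of only the groups compared left 7 of 16 in day 1 minus day 0. With the replicate block 1 gene was called in day 17 minus day 1 in place of 0 (196 of all genes in place of 16), and the MUP1 difference against log phase was 1.96 (adjusted p = 0.0726) and that of CBF1 in day 1 minus day 0 was -0.81 (adjusted p = 0.0683). Leaving out 1 array at a time gave 13 to 20 calls in immobilized minus log phase, 12 to 21 against stationary phase, 7 to 15 against the chemostat, 22 to 24 in stationary minus log phase, 0 to 1 in chemostat minus log phase, 10 to 18 in day 1 minus day 0 and 0 to 14 in day 17 minus day 1. The median of the 10 genes then lay between -0.15 and 0.0728 in chemostat minus log phase, so it has no settled direction, and kept its sign in the other 6 comparisons. Groups of 2 arrays, relative values and the differing extraction limit every comparison between beads and free cells.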
